A study of Mus musculus with 4 samples.

Results

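The C/EBP genes encode CCAAT/enhancer-binding proteins, a family of transcription factors. The members described here are the 5 genes *Cebpa*, *Cebpb*, *Cebpd*, *Cebpe* and *Cebpg*, out of 22463 gene symbols in the deposited tables. Each was found by its RefSeq transcript, and each had 1 transcript there: NM_007678 for *Cebpa*, NM_009883 for *Cebpb*, NM_007679 for *Cebpd*, NM_207131 for *Cebpe* and NM_009884 for *Cebpg*. Of the 5, 4 were expressed, which means an RPKM (reads per exon length and sequencing depth) above 1 in control cells at either day, as were 11541 genes in all. *Cebpe* was not.

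RNA-Seq was done on mouse brown preadipocytes from C57BL/6J embryos at E18.5, immortalized with SV40 large T antigen and carrying *Mll3*-/- and floxed *Mll4* alleles. MLL3 and MLL4 are histone methyltransferases that place H3K4 mono- and di-methylation on enhancers. Cells infected with Ad-GFP, an adenovirus expressing green fluorescent protein, remained *Mll3*-/-, and cells infected with Ad-Cre, which expresses the Cre recombinase, became *Mll3*-/-*Mll4*-/-. Each was sampled past confluence, before induction (day 0), and after 2 days (day 2) in an adipogenic cocktail of insulin, T3, indomethacin, dexamethasone and IBMX. The former are called control cells and the latter MLL4-deficient cells here. The labels call the control cells WT, but they lack MLL3 as the MLL4-deficient cells do, so that intact *Mll3* was in none of the libraries. The sources do not say how many clones or embryos the cells came from. With 1 library per condition there is no replicate check, no test between conditions was possible, and each interval below covers counting error only.

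C/EBP proteins bind DNA as dimers through a basic region and a leucine zipper, and their sites are best known from the promoters and enhancers of fat cell, liver and myeloid genes. In cultured preadipocytes, C/EBPβ and C/EBPδ are the early members of the adipogenic cascade, induced by cyclic AMP and glucocorticoid signals, and C/EBPα follows together with PPARγ and maintains the fat cell programme. C/EBPγ lacks a strong activation domain and acts largely through its dimer partners, and C/EBPε is known from the late maturation of granulocytes.

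The family's addresses are given on NCBI37/mm9, the build of the files, from GENCODE vM1. *Cebpa* lies on the plus strand at chr7:35904312-35906945 and consists of 1 exon. *Cebpg*, on the minus strand at chr7:35831441-35841522 with 2 exons, lies on the same stretch of chromosome 7. *Cebpb* is a gene of 1 exon on the plus strand at chr2:167514415-167515918. It shares 312 bases, 20.7% of its length, with exons of *Tmem189* on the other strand, and the counting is not stated to use strand. *Cebpd* is placed on the plus strand at chr16:15887379-15888559, where this annotation calls it a pseudogene with 1180 exonic bases, whereas the deposited RPKM rests on 2260 bases of exon. The nearest gene there, *Spidr* (2310008H04Rik in the annotation), lies on the other strand with its end 761 bases away and had between 377 and 1334 reads, and whether it shares reads with *Cebpd* was not tested. *Cebpe* has 2 exons on the minus strand at chr14:55329200-55331011. Apart from *Cebpg*, with a GC content of 42.9%, the transcripts are rich in GC: 62.6% for *Cebpa*, 67.2% for *Cebpb*, 61.6% for *Cebpe* and 63.0% over the annotated exons of *Cebpd*. The exon lengths behind the RPKM were 2640 bases for *Cebpa*, 1504 for *Cebpb*, 1238 for *Cebpe* and 4702 for *Cebpg*. Of windows as long as a read (50 bases), no window of *Cebpa* or *Cebpe*, 0.481% for *Cebpb*, 0.442% for *Cebpd* and 2.27% for *Cebpg* matched elsewhere in the genome with up to 2 mismatches.

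Promoter sequences are shown for the members that had a promoter in the reference set used, and their relation to the RNA levels was not tested. RefSeq promoters on GRCm38.p6, a later build, were matched for 3 of the 5 genes: *Cebpa* (chr7:35119043-35119292, plus strand), *Cebpb* (chr2:167688665-167688914, plus strand) and *Cebpg* (chr7:35056567-35056816, minus strand). *Cebpd* and *Cebpe* are named only. Each run is the 250 bases before the annotated start, read 5′ to 3′ along the gene. Capitals mark matches on either strand to TGACG (the core of a cyclic AMP response element), TTGCG (part of a C/EBP site), CCAAT (the CCAAT box, read as ATTGG on the other strand), GGGCGG (the GC box) or TATAAA (the TATA box).
Cebpa: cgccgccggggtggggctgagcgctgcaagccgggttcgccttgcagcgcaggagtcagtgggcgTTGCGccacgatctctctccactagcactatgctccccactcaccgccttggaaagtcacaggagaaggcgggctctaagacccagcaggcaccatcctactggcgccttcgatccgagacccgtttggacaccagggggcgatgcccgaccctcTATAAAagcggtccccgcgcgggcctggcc
Cebpb: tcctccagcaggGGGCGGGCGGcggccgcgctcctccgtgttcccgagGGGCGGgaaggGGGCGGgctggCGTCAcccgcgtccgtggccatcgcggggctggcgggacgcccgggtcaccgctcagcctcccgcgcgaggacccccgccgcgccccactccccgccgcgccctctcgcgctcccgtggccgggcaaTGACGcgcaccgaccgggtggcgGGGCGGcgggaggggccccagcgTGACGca
Cebpg: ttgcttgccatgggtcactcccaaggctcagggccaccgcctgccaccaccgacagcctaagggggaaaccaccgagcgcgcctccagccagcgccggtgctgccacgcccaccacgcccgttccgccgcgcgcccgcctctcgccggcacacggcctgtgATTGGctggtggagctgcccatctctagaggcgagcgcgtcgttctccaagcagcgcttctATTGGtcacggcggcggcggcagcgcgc

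The *Cebpb* run held 3 matches to TGACG, of which the first bases lay 180 (as CGTCA), 53 and 7 bases before the start. At least 1 match was found in 17.8% of the 32851 promoters of this length, and at least 3 in 0.688%. It also held 5 matches to GGGCGG, some of them overlapping each other, a motif with at least 1 match in 32.7% and at least 5 in 1.93% of promoters. The *Cebpa* run held 1 TTGCG, 185 bases before the start (14.5% of promoters hold at least 1), and 1 TATAAA, 30 bases before it (12.4%). *Cebpg* held 2 CCAAT boxes, both on the other strand, 89 and 28 bases before the start (33.8% of promoters hold at least 1 and 10.1% at least 2). No other match to these 5 motifs was in the 3 runs, which describes the letters of these windows and not the binding of a factor. Their GC content was 66.4% for *Cebpa*, 81.6% for *Cebpb* and 70.8% for *Cebpg*.

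The libraries held between 17198448 and 22986362 mapped reads, recovered from the ratio of count to RPKM. The counts on exons summed to between 96.1% and 99.4% of that number in 3 libraries and to 87.8% in the Ad-Cre library at day 2. Within the Ad-Cre library at day 2, GC-rich transcripts were high as a class: the 542 expressed genes in the highest of 20 bins of GC content, which holds *Cebpa*, *Cebpb* and *Cebpd*, had a median log2 ratio of 0.69 over control cells at day 2, against 0.04 at day 0. The bin of *Cebpg*, the third from the lowest, had a median of −0.59 at day 2. The part of GC content in the results was not tested beyond the values given with each. The label was checked on markers. The summed RPKM of 6 preadipocyte and fibroblast markers was 2132 in control and 1743 in MLL4-deficient cells at day 0, and 404 and 659 at day 2. The 8 brown fat markers summed to 17.8 in control and 10.7 in MLL4-deficient cells at day 0, and to 950 and 242 at day 2. Most of the sum at day 2 was *Fabp4*, which white fat cells share (893 and 223 RPKM). Of the markers more particular to brown fat, *Ebf2* was expressed in all libraries (4.77 to 16.1 RPKM), *Prdm16* reached 2.14 RPKM in control cells at day 2, *Cidea* was at 0 and *Ucp1* at no more than 1 read in each library. Blood cell markers (4 of 6 at 0 in all libraries) summed to at most 0.240 RPKM and endothelial markers to at most 0.225. Of 5 skeletal muscle markers only *Acta1* reached 1 RPKM. It had an RPKM of 18.4 in control and 48.5 in MLL4-deficient cells at day 0, and 0.364 and 3.41 at day 2. *Kmt2d*, which encodes MLL4, was between 15.6 and 18.7 RPKM in all 4 libraries. It was counted over its whole transcript, so that this level does not check the deletion of the floxed exons.

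*Cebpa* was the member that rose most. It encodes C/EBPα, the partner of PPARγ in the later part of the cascade. In control cells it had 818 reads at day 0 and 40092 at day 2, which is an RPKM of 18.0 and 661. In MLL4-deficient cells it had 381 and 8062 reads, an RPKM of 7.40 and 169. The gene thus went from rank 3218 to rank 10 of the expressed genes in control cells, and from rank 6359 to rank 165 in MLL4-deficient cells.

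*Cebpb* was the most abundant member per length in 3 of the 4 libraries, all but Ad-GFP at day 2. It encodes C/EBPβ, the first of the cascade. control cells had 2293 reads (RPKM of 88.6) at day 0 and 12711 reads (RPKM of 368) at day 2. MLL4-deficient cells had 1385 reads (RPKM of 47.2) at day 0 and 20609 reads (RPKM of 760) at day 2. It was lowest in MLL4-deficient cells at day 0 and highest in the same cells at day 2, where it was the gene of rank 14.

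*Cebpd* encodes C/EBPδ, which is induced alongside C/EBPβ. It had 764 reads (RPKM of 19.7) and 3000 reads (RPKM of 57.7) in control cells at day 0 and day 2. In MLL4-deficient cells it had 545 reads (RPKM of 12.4) and 7699 reads (RPKM of 189). Its order over the 4 libraries was that of *Cebpb*.

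*Cebpg*, for the inhibitory and partner-dependent C/EBPγ, was high in 1 library. It had 739 reads (RPKM of 9.14) at day 0 and 2683 reads (RPKM of 24.8) at day 2 in control cells. MLL4-deficient cells had 728 reads (RPKM of 7.94) at day 0 and 878 reads (RPKM of 10.4) at day 2. The Ad-GFP library at day 2 stood above the other three, which lay close together. *Cebpe*, for the granulocyte member C/EBPε, had 1 read in control cells at day 2 and 0 in the other libraries, so that no ratio is given. A count of 3 reads would be an RPKM between 0.105 and 0.141 for this transcript.

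**Figure D1:**
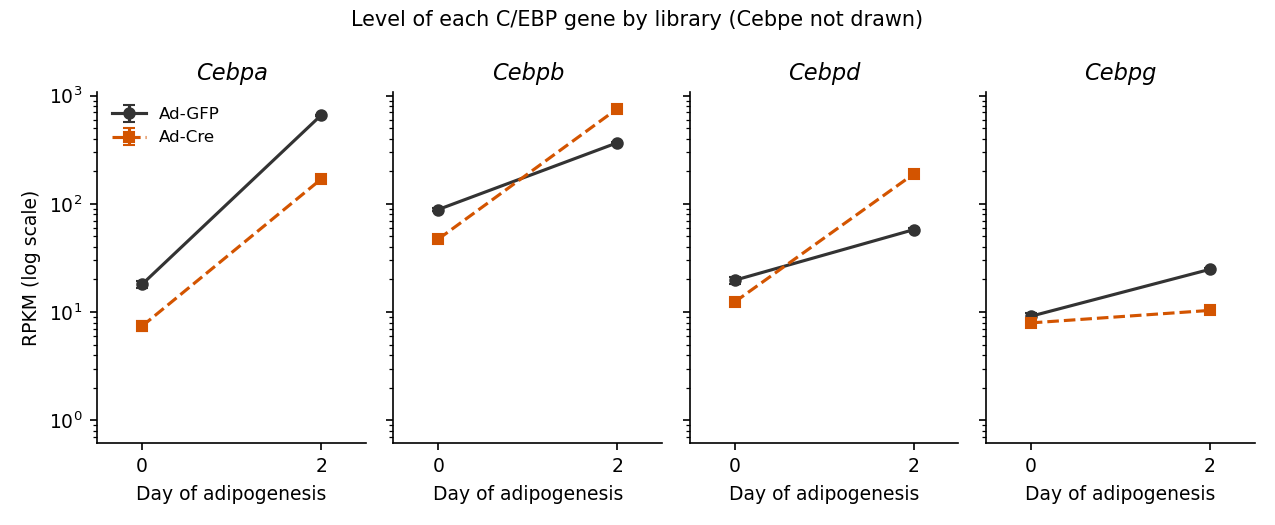
RPKM on a log scale of 4 C/EBP genes at day 0 and day 2, in 1 Ad-GFP (circles, solid line) and 1 Ad-Cre library (squares, dashed line) each day. Bars are exact Poisson 95% intervals and cover counting error only. The lines of *Cebpb* and *Cebpd* cross between the days, with Ad-Cre below at day 0 and above at day 2, while for *Cebpa* Ad-Cre stays below (7.40 against 18.0, then 169 against 661).

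The order of the members by RPKM differed between the libraries. At day 0 in control cells, *Cebpb* came first, and *Cebpd* (19.7, 95% interval of 18.3 to 21.1) and *Cebpa* (18.0, 16.8 to 19.3) did not differ beyond counting error, followed by *Cebpg*. At day 0 in MLL4-deficient cells *Cebpb* and *Cebpd* led again, and *Cebpg* (7.94, 7.37 to 8.53) and *Cebpa* (7.40, 6.67 to 8.18) had overlapping intervals. At day 2 in control cells the order was *Cebpa*, *Cebpb*, *Cebpd*, *Cebpg*, with no overlap of intervals. At day 2 in MLL4-deficient cells it was *Cebpb*, *Cebpd*, *Cebpa*, *Cebpg*, where *Cebpd* (189, 185 to 193) and *Cebpa* (169, 166 to 173) lay close but apart. The place of *Cebpd* in these orders rests on its counted length of 2260 bases.

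Summed over the family, RPKM was 135 in control and 74.9 in MLL4-deficient cells at day 0, and 1111 and 1129 at day 2. The sum of the deposited values was therefore nearly equal at day 2, at 1.02 times the control in MLL4-deficient cells (1.15 times with TMM scaling). At day 0 it was 0.553 times. The sum was not recomputed with trends over transcript length and GC content removed. That removal took the day 2 log2 ratios over control cells to 0.19 for *Cebpb* and −2.50 for *Cebpa*. It took them to −0.44 for *Cebpg* and, with the GC content of its annotated exons, 1.18 for *Cebpd*. The make-up of the sum was not equal. *Cebpa* took 13.3% of the sum at day 0 and 59.5% at day 2 in control cells, but 9.88% and 15.0% in MLL4-deficient cells. *Cebpb* took 65.4% and 33.1% in control cells, and 63.0% and 67.3% in MLL4-deficient cells. The early members *Cebpb* and *Cebpd* together went from 80.0% to 38.3% of the sum in control cells and stood at 79.5% and 84.1% in MLL4-deficient cells. *Cebpg* took 6.75% and 2.23% in control cells, and 10.6% and 0.918% in MLL4-deficient cells. Per length, there was 1.80 times as much *Cebpa* as *Cebpb* RNA in control cells at day 2, and between 0.157 and 0.223 times as much in the other libraries. These are levels of RNA in bulk samples, in which fewer cells of a type and less RNA per cell cannot be told apart.

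**Figure D2:**
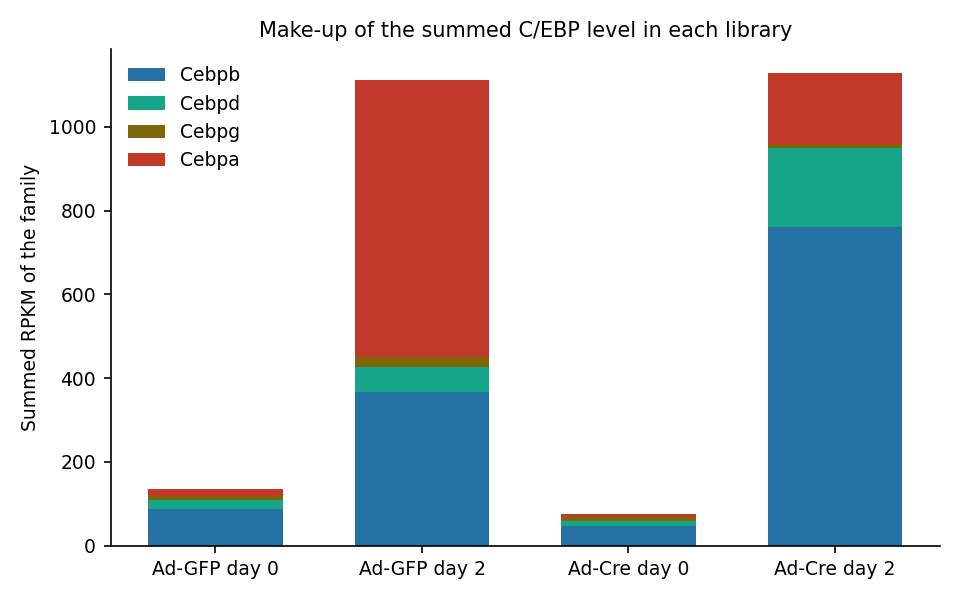
Summed RPKM of the C/EBP genes in each of the 4 libraries, stacked by gene, with bars starting at 0. The RPKM are as deposited, without removal of trends over length or GC content. The bars at day 2 are of nearly the same height (1111 and 1129), with *Cebpa* as the largest part in control cells (59.5%) and *Cebpb* in MLL4-deficient cells (67.3%).

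Over 2 days of adipogenesis in control cells all 4 expressed members rose by more than 2.5-fold, the cutoff of the study, where 8.38% of all expressed genes rose and 12.7% fell by as much. *Cebpa* rose 36.7-fold, a log2 ratio of 5.20 (5.10 to 5.30). *Cebpb* rose 4.15-fold (log2 ratio of 2.05, 1.99 to 2.12) and *Cebpd* 2.94-fold (1.55, 1.44 to 1.67). *Cebpg* rose 2.72-fold (1.44, 1.32 to 1.56), close to the cutoff, and fell short of it with DESeq2 size factors (1.31) or with the trends over length and GC content removed (1.20). *Cebpd* fell just short of the cutoff with only the length trend removed (log2 ratio of 1.32). The median log2 ratio was 1.80 over the 4 members and 0.15 over all expressed genes.

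In MLL4-deficient cells, 3 of the 4 rose by more than 2.5-fold over the 2 days, where 8.68% of expressed genes rose and 10.0% fell by as much. *Cebpa* rose 22.9-fold (log2 ratio of 4.52, 4.37 to 4.67), *Cebpb* 16.1-fold (4.01, 3.93 to 4.09) and *Cebpd* 15.3-fold (3.93, 3.81 to 4.06). *Cebpg* was 1.31-fold higher (0.38, 0.24 to 0.53), within the cutoff. The rises of *Cebpb* and *Cebpd* were smaller with the length and GC trends removed, at log2 ratios of 3.16 and 3.34, and still past the cutoff. For *Cebpd* the GC content came from its annotated exons, an addition chosen after seeing the data. The median was 3.97 over the members and −0.01 over all expressed genes.

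Before adipogenesis the effect of the *Mll4* deletion was asked by comparing MLL4-deficient with control cells at day 0. No member passed 2.5-fold, a cutoff that 1.27% of expressed genes passed upward and 4.12% downward. All 4 were lower in MLL4-deficient cells. *Cebpa* was 2.44-fold lower (log2 ratio of −1.28, −1.46 to −1.11) and passed the cutoff once the length and GC trends were removed (−1.36). *Cebpb* was 1.88-fold lower (−0.91, −1.01 to −0.81), *Cebpd* 1.59-fold lower (−0.67, −0.83 to −0.51) and *Cebpg* 1.15-fold lower (−0.20, −0.35 to −0.05). The median over all expressed genes was −0.02. In the same comparison 2 of 6 preadipocyte and fibroblast markers, *Dlk1* and *Pdgfra*, were past 2.5-fold lower in MLL4-deficient cells, beside 4.12% of expressed genes. *Dlk1* had an RPKM of 141 in control and 10.1 in MLL4-deficient cells, and *Pdgfra* 73.6 and 9.72. The other 4 were within the cutoff. *Col1a1* (RPKM of 1246 in control and 1010 in MLL4-deficient cells) and *Thy1* (294 and 183) were lower. *Pdgfrb* (89.9 and 123) and *Col3a1* (287 and 408) were higher. The part of these markers in the differences of the members was not tested.

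At day 2, 1 member was past 2.5-fold higher in MLL4-deficient than in control cells and 1 was past 2.5-fold lower, a cutoff that 8.16% of expressed genes passed upward and 10.1% downward. *Cebpa* was 3.90-fold lower (log2 ratio of −1.96, −2.00 to −1.93). *Cebpd* was 3.27-fold higher (1.71, 1.65 to 1.77). *Cebpb* was 2.07-fold higher (1.05, 1.02 to 1.08) and *Cebpg* 2.40-fold lower (−1.26, −1.37 to −1.15), both within the cutoff. With TMM scaling the median of all expressed genes moved from −0.16 to 0.02 and the split of genes past the cutoff from 940 higher and 1162 lower to 1213 and 816, and the same 2 members passed it.

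These values at day 2 moved with the length and GC content of the transcripts. With the trend over length alone removed, the log2 ratio of *Cebpg* was −0.68, that of *Cebpb* 0.79, that of *Cebpd* 1.75 and that of *Cebpa* −1.81. With the trends over length and GC content removed, *Cebpb* was near the level of control cells (log2 ratio of 0.19), *Cebpg* was less low (−0.44) and *Cebpa* was lower (−2.50). *Cebpd* was higher but within the cutoff (1.18). Its value takes the GC content from its annotated exons, an addition chosen after seeing the data. Removal of the trends also takes out any change that transcripts of like length and GC content share. The lower level of *Cebpa* was past 2.5-fold with and without it. Taking off the reads that *Tmem189* would place on the shared bases left *Cebpb* at 1.05.

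**Figure D3:**
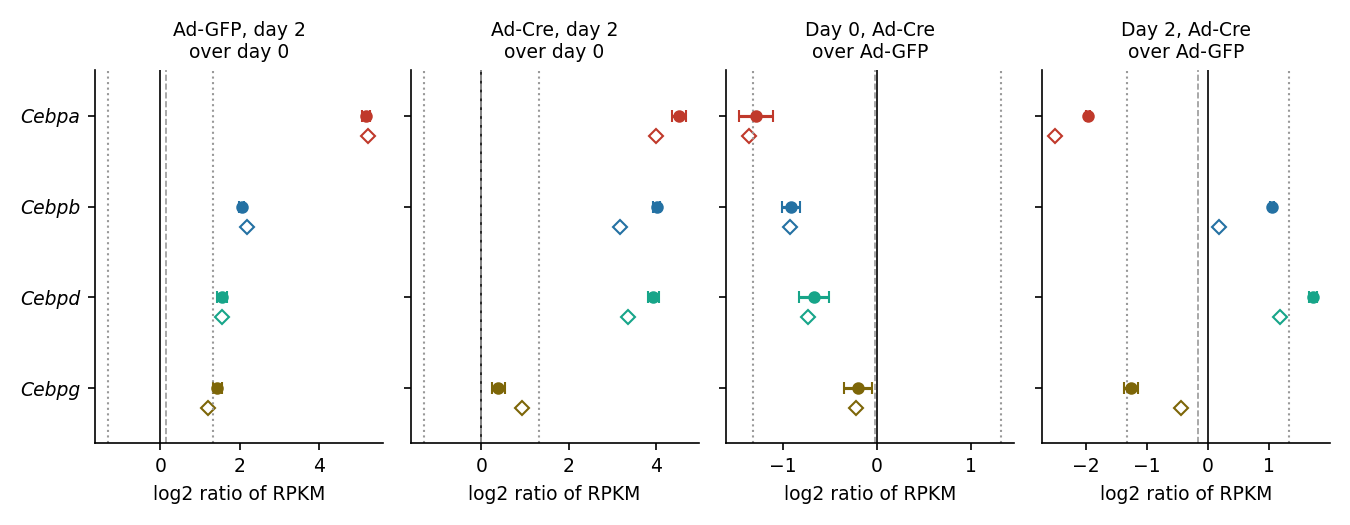
Log2 ratios of RPKM of the 4 expressed C/EBP genes in the 4 comparisons. Filled circles with bars are the ratios with exact binomial 95% intervals (counting error only), open diamonds the ratios with length and GC trends removed, dotted lines the 2.5-fold cutoff and the dashed line the median of all expressed genes. In the right panel the open diamond of *Cebpb* lies near 0 (0.19), while that of *Cebpa* (−2.50) lies below its circle (−1.96). The diamonds of *Cebpd* use the GC content of its annotated exons, an addition chosen after seeing the data.

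Setting the rise over 2 days in MLL4-deficient cells against that in control cells separates a low start from a small rise. The rise of *Cebpd* was 5.20-fold larger in MLL4-deficient cells (difference of log2 ratios of 2.38, 2.21 to 2.55) and that of *Cebpb* 3.88-fold larger (1.96, 1.85 to 2.06), where 11.0% of expressed genes had a rise more than 2.5-fold larger and 10.9% one more than 2.5-fold smaller. That of *Cebpa* was 1.60-fold smaller (−0.68, −0.86 to −0.50) and that of *Cebpg* 2.08-fold smaller (−1.06, −1.24 to −0.87). The median over all expressed genes was −0.11. With the length and GC trends removed, *Cebpd* (1.79, with the GC content of its annotated exons) still passed the cutoff, *Cebpb* (0.96) did not, and *Cebpg* came to −0.26. *Cebpb* and *Cebpd* were lower in MLL4-deficient cells at day 0 and higher at day 2, which was true of 23.1% of expressed genes. *Cebpd* was also past 2.5-fold higher at day 2, as were 3.76%.

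**Figure D4:**
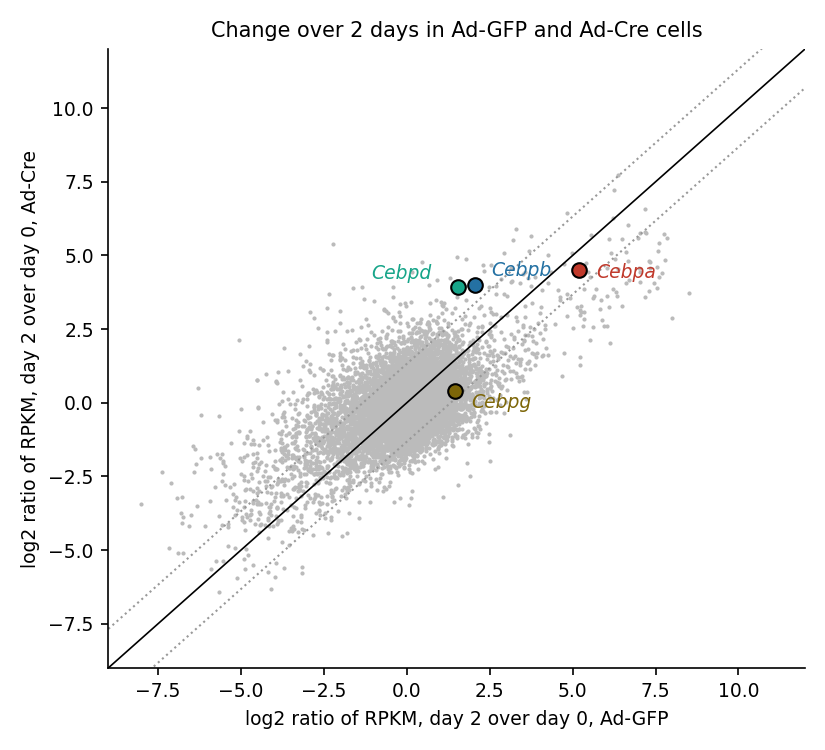
Log2 ratio of RPKM, day 2 over day 0, in MLL4-deficient (Ad-Cre, vertical axis) against control cells (Ad-GFP, horizontal axis). Each grey point is 1 expressed gene, the solid line marks equal change and the dotted lines a 2.5-fold difference between the cells. *Cebpd* and *Cebpb* lie above the upper dotted line (differences of 2.38 and 1.96), and *Cebpa* and *Cebpg* between the solid and the lower dotted line.

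Partners and inhibitors of C/EBPs are other leucine zipper proteins and the Tribbles pseudokinases, of which 8 of 10 listed genes were expressed. In control cells 2 of them rose by more than 2.5-fold, *Ddit3*, for the inhibitory partner CHOP, from 607 to 2449 reads (log2 ratio of 1.59), and *Trib3* from 776 to 3732 reads (1.85), beside 8.38% of all expressed genes. In MLL4-deficient cells none passed the cutoff, where 8.68% of all expressed genes rose and 10.0% fell by as much. *Ddit3* had 815 and 1050 reads there and *Trib3* 1010 and 637. At day 2 *Trib3* was 4.60-fold lower in MLL4-deficient cells, *Ddit3* 1.83-fold lower and *Atf4*, for a partner of C/EBPs in amino acid stress, 1.86-fold lower, while *Atf5* was 1.33-fold higher. *Batf3* was past 2.5-fold higher, on 17 and 58 reads. The list thus had 1 gene past the cutoff upward and 1 downward, beside 8.16% and 10.1% of all expressed genes. With the length and GC trends removed the call of *Batf3* ended, and the list had 0 upward and 2 downward, beside 6.97% and 5.44% of genes. The median of the list at day 2 was −0.35, against −0.16 over all expressed genes.

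The genes for factors known to switch on *Cebpb* and *Cebpd* were compared in the same way. Of 8 listed, 7 were expressed, and none was past 2.5-fold different between MLL4-deficient and control cells on either day. Of all expressed genes, 1.27% passed upward and 4.12% downward at day 0, and 8.16% and 10.1% at day 2. A count of 0 of 7 is near these shares. *Nr3c1*, for the glucocorticoid receptor that dexamethasone binds, was 1.54-fold lower in MLL4-deficient cells at day 2. *Creb1*, for the cyclic AMP responsive factor, was 1.61-fold lower, and its relative *Atf1* had 888 reads in control and 360 in MLL4-deficient cells. *Stat3* was 1.18-fold higher. The median log2 ratio of the list at day 2 was −0.36, and turned to 0.34 with the length and GC trends removed, as its median change over the 2 days in MLL4-deficient cells did from −0.27 to 0.36. Over the 2 days, *Klf4* was the only expressed one past the cutoff in control cells, from 216 to 98 reads. Of all expressed genes, 12.7% fell past the cutoff there. In MLL4-deficient cells the only one was *Klf5*, from 139 to 328 reads (2.55-fold), where 8.68% of all expressed genes rose past the cutoff. The call of *Klf5* ended with the length and GC trends removed. *Egr2*, left out because expression was judged in control cells, fell from 111 to 34 reads in MLL4-deficient cells (log2 ratio of −1.59, −2.19 to −1.03).

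Fat cell genes bound by C/EBPs were lower as a group in MLL4-deficient cells at day 2. Of 16 listed, 12 were expressed. In control cells 11 of 12 rose past 2.5-fold and in MLL4-deficient cells 9 of 12, with medians of 5.79 and 3.30. These shares stand beside 8.38% and 8.68% of all expressed genes. At day 2, 12 of 12 were past 2.5-fold lower in MLL4-deficient cells, beside 10.1% of all expressed genes (11 with TMM scaling, 10 with the length and GC trends removed), with a median of −2.05. *Adipoq*, *Slc2a4*, *Plin1*, *Cidec* and *Klf15* were below 1 RPKM in control cells at day 0 and counted as expressed only through control cells at day 2. For these genes the rise in control cells and the lower level in MLL4-deficient cells at day 2 are partly set by that filter. *Lpl*, for lipoprotein lipase, had 30347 reads in control and 4988 in MLL4-deficient cells at day 2. *Fabp4*, for the fatty acid binding protein aP2, was 4.01-fold lower and *Dgat2*, for an enzyme of triglyceride synthesis, had an RPKM of 152 and 35.7. *Scd1*, for stearoyl-CoA desaturase, was 2.27-fold higher at day 2 than at day 0 in control cells and at 0.454 times its day 0 level in MLL4-deficient cells. At day 0 1 of the 12 was past the cutoff, *Pparg*, 3.31-fold lower in MLL4-deficient cells on 105 and 36 reads.

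Acute phase and cytokine genes bound by C/EBPs, best known from C/EBPβ in liver and immune cells, were mixed. Of 12 listed, 7 were expressed, and at day 2 *Ccl2* and *Ptgs2* were past 2.5-fold higher and *Hp*, *Saa3* and *C3* past 2.5-fold lower in MLL4-deficient cells, beside 8.16% higher and 10.1% lower of all expressed genes. *Lcn2*, for lipocalin 2, had 550 reads in control and 790 in MLL4-deficient cells (1.83-fold higher). *Hp*, for haptoglobin, had 4885 and 1251 reads, and *C3*, for complement component 3, 3883 and 336. *Ptgs2*, for cyclooxygenase 2, was higher in MLL4-deficient cells on both days (2.66-fold and 2.86-fold), and fell over the 2 days in both cells. At day 2 it had 29 reads in control and 65 in MLL4-deficient cells, an RPKM of 0.304 and 0.870, below 1 in both. Its higher call at day 0 ended with the length and GC trends removed. *Ccl2* rested on 5 and 11 reads and *Saa3* on 16 and 1. Of 10 granulocyte genes bound by C/EBPε, 1 was expressed, *Camp*, with 21 reads in control cells at day 2 and at most 9 in the other libraries. *Camp*, *Saa3*, *Lcn2*, *C3* and *Lbp* were below 1 RPKM in control cells at day 0, so that they counted as expressed only through control cells at day 2. For *Saa3* and *C3* the lower level in MLL4-deficient cells at day 2 is partly set by that filter.

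**Figure D5:**
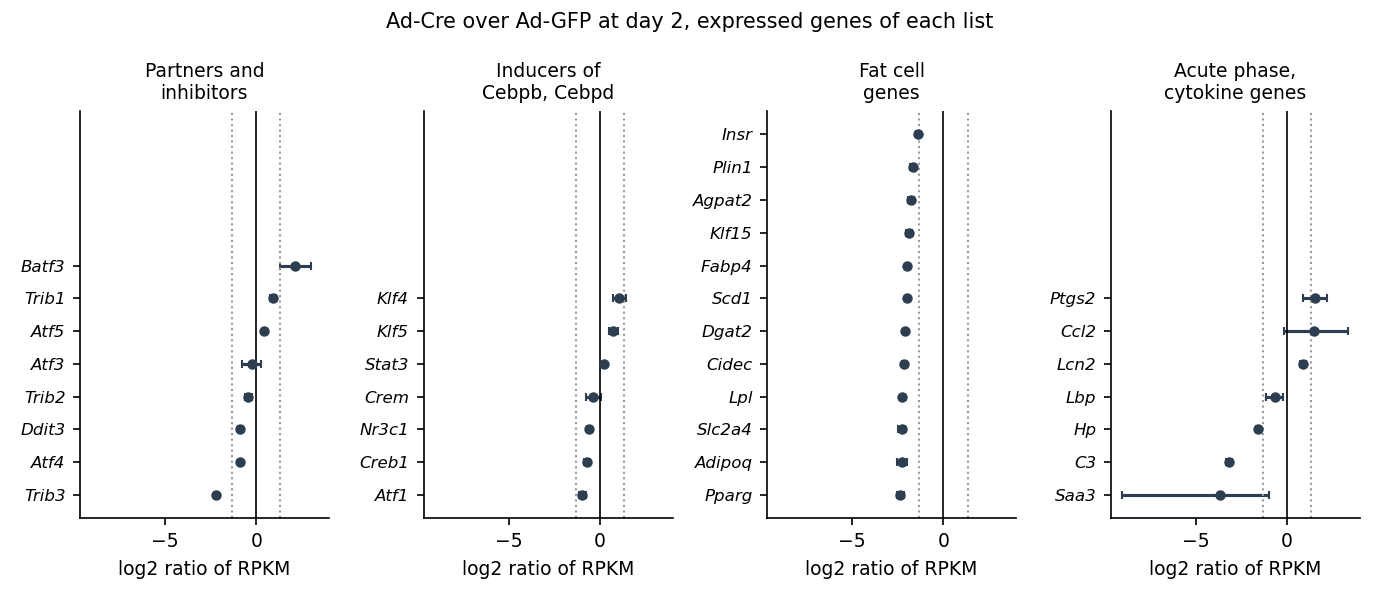
Log2 ratio of RPKM, Ad-Cre over Ad-GFP at day 2, of the expressed genes of 4 lists, with exact binomial 95% intervals (counting error only). Dotted lines mark 2.5-fold. Expressed means above 1 RPKM in control cells at either day. All 12 fat cell genes lie to the left of the lower dotted line, and the other lists lie on both sides of 0.

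The genes whose profile over the 4 libraries was nearest to that of each member were found by the Euclidean distance of centred log2 RPKM among 11114 expressed genes with reads in each library and at least 100 reads in all. Nearest to *Cebpd* was *Cebpb*, at a distance of 0.575, followed by *Emb* (0.591) and *Ramp3* (0.642). Nearest to *Cebpb* were *Pilra* (0.536), *Cebpd* and *P3h2* (0.580). *Emb*, for the cell surface protein embigin, had 468 and 1171 reads in control cells and 195 and 3258 in MLL4-deficient cells at day 0 and day 2. Nearest to *Cebpa* were *Rgcc* (0.296), *Rufy4* (0.371) and *Pm20d2* (0.508). *Rgcc* went from 45 to 2638 reads in control cells and from 20 to 405 in MLL4-deficient cells, while the other two had at most 3 reads per library at day 0. Nearest to *Cebpg* were *Ppp2r3a* (0.0656), *Ints10* (0.0732) and *Ttll11* (0.0745), each of which had its highest level in control cells at day 2, as *Cebpg* did. The distance describes these 4 libraries, and no replicate bears on it.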

How the data were processed

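RNA-Seq was done by the authors on 4 samples, 1 per condition. Per the labels and the study's methods, reads of 50 bases were aligned to NCBI37/mm9 and collected on exons of RefSeq transcripts. The aligner's version, the treatment of strand and that of reads with several matches are not given in the sources used here. The submitters' processing notes name SICER 1.1 and bedtools 2.16. The deposited read counts are whole numbers without normalization, and the RPKM values were deposited beside them, calculated by the authors from the count, the exon length and the mapped reads, both recovered here from their ratio. The most-read transcript stood for each gene, and 97.8% of transcripts matched a symbol.

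Each comparison is a ratio of RPKM without pseudocount, with an exact binomial (Clopper-Pearson) 95% interval of the reads. Differences between rises have conditional exact intervals. No test was made. The scripts were tested on simulated data. Alternatives were scaling by edgeR 4.0.16 TMM, DESeq2 1.42.0 size factors or the sum of counts, 1 RPKM added, cutoffs of 2-fold and 4-fold, RPKM above 0.5 or no filter, the interval bound past the cutoff, all transcripts, and median trends over length and GC content (20 bins, 5 rounds) removed. Python 3.11.15, SciPy 1.17.1 and blastn 2.17.0 were used.

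Members and lists (from general knowledge) were chosen with earlier results of these data known. Named genes are the members, the 4 most-read genes of each list, genes of counts up to 5, and the 3 nearest profiles of each expressed member. *Tmem189*, *Spidr*, *Dlk1*, *Pdgfra*, *Cidea*, *Ebf2*, *Prdm16* and *Acta1* were named after their values were seen. So were *Col1a1*, *Thy1*, *Pdgfrb*, *Col3a1*, *Egr2*, *Adipoq*, *Slc2a4*, *Plin1*, *Cidec*, *Klf15* and *Lbp*.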

Additional observations from a re-analysis of the deposited data

Results flagged for a closer look

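*Cebpb* and *Cebpd* were each lower in MLL4-deficient than in control cells at day 0 and higher at day 2, with log2 ratios of −0.91 and 1.05 for *Cebpb* and of −0.67 and 1.71 for *Cebpd*. Each ratio's counting interval lay away from 0, but with 1 library per condition the difference between the days was not tested for these genes or for those that follow.

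Among the partners and inhibitors, the log2 ratio of Ad-Cre over control cells was 0.20 at day 0 and −2.20 at day 2 for *Trib3*, 0.24 and −0.87 for *Ddit3*, and 0.064 and −0.90 for *Atf4*, while *Atf5* went the other way, at −0.18 and 0.41. *Trib3* also moved in opposite directions over the 2 days, by 1.85 in control and −0.55 in MLL4-deficient cells.

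Among the inducers, *Nr3c1* had log2 ratios of Ad-Cre over control cells of 0.15 at day 0 and −0.62 at day 2, and changes over the 2 days of 0.38 in control and −0.39 in MLL4-deficient cells. *Stat3* had ratios of −0.14 and 0.24, and changes of −0.21 and 0.17. *Creb1* changed by 0.31 in control and −0.27 in MLL4-deficient cells, and *Atf1* by 0.42 and −0.55. The fat cell gene *Scd1* had ratios of 0.30 and −2.02, and changes of 1.18 and −1.14.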

How the results depend on the processing

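No single ratio of a member changed sign under any alternative run: of 100 values recomputed, 54 moved by less than their counting interval and 46 by more. Of 52 counts of members past the cutoff under the alternatives, 43 stayed within 1.5 times the reported count. Some of these could not differ and say nothing on robustness. The counts over all transcripts repeat the reported ones, since each member has 1 transcript. RPKM above 0.5 and no filter left the same 4 members, since *Cebpe* did not pass 3 reads. The cause of the moves was not tested.

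With a 2-fold cutoff, 1 member (*Cebpa*) passed at day 0 between MLL4-deficient and control cells, against 0, and 4 passed at day 2, against 2, where 12.7% of all expressed genes passed upward and 17.9% downward at day 2 and 2.41% and 6.24% at day 0. With a 4-fold cutoff, 2 passed in the rise of control cells, against 4, where 3.71% of all genes rose by as much, and 0 at day 2 between the cells, where 3.43% passed upward and 3.11% downward. With length and GC trends removed, *Cebpd* was left out for want of a protein-coding transcript. Of the 3 remaining members, 2 passed in the rise of control cells, 1 at day 0 and 1 at day 2 between the cells. Of all genes with a value, 6.55% rose by as much in control cells. Between the cells, 1.05% passed upward and 3.68% downward at day 0, and 6.97% and 5.44% at day 2. With *Cebpd* added from its annotated exons, an alternative chosen after seeing the data, 3 passed in the rise of control cells, where 6.56% of genes did. Between the cells 1 passed at day 0 and 1 at day 2.

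The difference between the rises in Ad-Cre and control cells was 1.96 for *Cebpb* and became 2.10 with TMM, 2.13 with DESeq2 size factors, 2.09 with the sum of counts, 1.59 with the length trend removed and 0.96 with both trends removed. With both removed it was −1.25 for *Cebpa*, 1.79 for *Cebpd* (GC content of its annotated exons) and −0.26 for *Cebpg*, and with the length trend alone −0.51 for *Cebpg*. Taking *Tmem189* coverage off *Cebpb*, also chosen after seeing the data, gave log2 ratios between 4.28 for the rise in MLL4-deficient cells and −1.11 for day 0 between the cells.

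No paired analysis was possible because each condition has 1 library and the labels carry no replicate numbers. Leaving out a replicate was not possible for the same reason, and no member has a second transcript in the files. Depth limited *Cebpe* and the genes of under about 20 reads.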
